A study of Mus musculus with 2 samples.

Results

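The genes for aminoacyl-tRNA synthetases were examined on 1 array of G9a-KO embryonic stem cells (ESCs) and 1 array of WT ESCs. They were taken by gene symbol from the annotation of the array, as every symbol made of an amino acid letter followed by "ars" with or without a final 1 or 2, together with *Farsa*, *Farsb* and *Eprs*. This gave 35 genes of the 18194 named genes on the array, read by 72 probe sets. Symbols that end in 2 (16 genes) stand for the mitochondrial enzymes and the others (19 genes) for the cytosolic ones.

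The G9a-KO cells descend from TT2 ESCs, a line whose F1 embryo came from a cross of C57BL/6 (mother) with CBA (father). They carry 1 mutant G9a allele and 1 conditional allele, and loss of exons 26 and 27 from the conditional allele removes the catalytic core of this H3K9 methyltransferase. The WT cells are TT2 ESCs. The same treatment text stands on both samples (800 nM 4-hydroxytamoxifen for 48 h, then 48 h without it), so it stays unstated whether WT cells were exposed to the drug. In the study's methods, by contrast, the knockout cells are a null line that was grown on inactivated mouse embryonic fibroblasts, with no feeder cells given for TT2. The sources used here name no number of clones or cultures behind either array.

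Aminoacyl-tRNA synthetases join each amino acid to its tRNA and so supply the ribosome with charged tRNAs. Mammalian cells keep separate nuclear genes for cytosolic and mitochondrial enzymes, with few exceptions. *Gars* and *Kars* each make both forms of their enzyme, *Eprs* joins the glutamate and proline enzymes of the cytosol in 1 protein, and the mitochondrial glutamine tRNA is charged by way of *Ears2* and an amidotransferase instead of *Qars*. When charged tRNAs run short, the kinase GCN2 raises the translation of the transcription factor ATF4, and many cytosolic synthetase genes are among the known ATF4 targets in mouse and human cells.

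Levels are log2 values after the 75th percentile of each array was set to 0, and a difference is G9a-KO minus WT on that log2 scale. With 1 array per group there is no spread between replicates and no test, so a count past a fold threshold describes these arrays alone, and precision is limited by their number. The 18 probe sets for RNA added at hybridization differed by -0.16 to 0.21 (SD 0.11), which covers technical spread from that step onward only. *Ehmt2*, the gene of G9a, was 2.90-fold lower in G9a-KO by its brighter probe set (0.51 in G9a-KO and 2.05 in WT) and differed by 0.20 by the other one. The sources used here do not place these probe sets inside or outside the deleted exons, so the label of the array is not checked by them. *Pou5f1*, a defining ESC gene, lay at 4.45 in G9a-KO and 4.91 in WT, and 1 of the 8 pluripotent markers was over 1.3-fold higher and 2 were lower. Over all genes, 17.4% were over 1.3-fold higher and 17.2% lower, and 4.61% were over 2-fold higher. Of the 16 primitive endoderm markers, 16 were over 2-fold higher in G9a-KO (log2 of their summed level 7.26 in G9a-KO and 3.75 in WT). Of 14 fibroblast markers, 5 were over 1.3-fold higher, 9 within and 0 lower (4.75 and 4.33), and 8 of the 14 lay below the median of both arrays. The fibroblast sum came mainly from *Vim* and *Fn1*, the only 2 markers above the 75th percentile of both arrays. *Fn1* lay at 3.31 in G9a-KO and 1.71 in WT. *Vim*, chosen for naming after its value was seen, lay at 3.84 and 3.88. Both sums are of 1 array each, and the part of these cells in the values of the synthetase genes was not tested. Fewer cells of a type and less RNA per cell cannot be told apart in such RNA.

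Cytosolic synthetase genes were mostly over 1.3-fold higher in G9a-KO. Mitochondrial synthetase genes were mostly within that threshold, as were 11896 of all 18194 genes. Of the 19 cytosolic genes, 13 were over 1.3-fold higher, 1 was over 1.3-fold lower and 5 were within that threshold. Of the 16 mitochondrial genes, 2 were higher, 4 were lower and 10 were within it. Among all 18194 genes, 17.4% passed 1.3-fold upward and 17.2% downward by the same reading, and among the 4471 other genes in the range of level of the cytosolic members, 21.3% were higher and 22.9% lower. In the range of the mitochondrial members, which held 10401 other genes, these shares were 20.7% and 23.2%, and 5836 genes were within. The calls of the mitochondrial members (12.5% higher and 25.0% lower) thus lay near those of other genes. The cytosolic median was 0.55 (1.47-fold) and the mitochondrial median was -0.20, against 0.036 for all genes, so that the median of the cytosolic genes exceeded that of the mitochondrial ones by 0.75 on the log2 scale. The changes were small in fold. At 2-fold, 1 cytosolic gene was higher and 0 genes of either kind were lower, where 4.61% of all genes were higher and 3.76% lower. When *Gars* and *Kars*, which serve both compartments, were left out, the cytosolic median was 0.41.

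**Figure D1:**
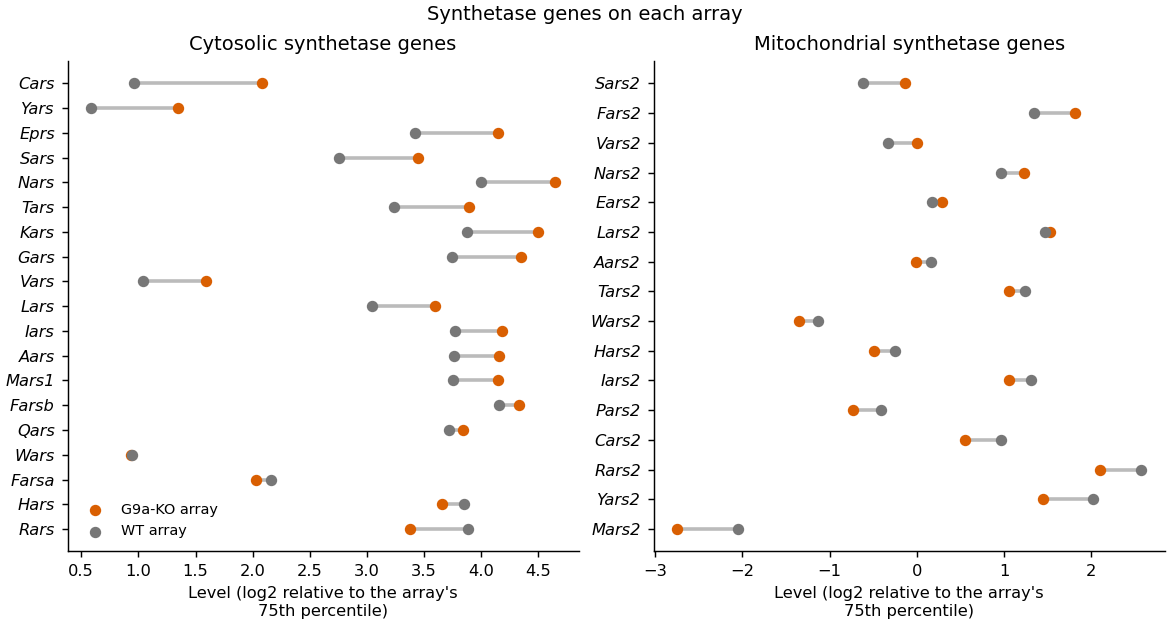
Level of 19 cytosolic (left) and 16 mitochondrial (right) synthetase genes, in log2 units with the 75th percentile of each array at 0 (horizontal axes, different ranges), with 1 point for the G9a-KO array (orange) and 1 for the WT array (grey). Genes run down the page from the highest to the lowest difference, and levels can be compared between the points of a gene but not between genes; 13 cytosolic genes have the orange point over 1.3-fold to the right, against 2 mitochondrial genes.

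*Cars*, the cysteine enzyme, had the highest difference of the cytosolic genes. It lay at 2.08 in G9a-KO and 0.96 in WT, a 2.17-fold difference that exceeded those of 96.3% of all genes. The size depended on the probe set, since the second, dimmer one (-1.16 in G9a-KO and -1.34 in WT) differed by only 0.19. *Yars*, the tyrosine enzyme, followed at 1.35 in G9a-KO and 0.58 in WT (1.70-fold), read by 1 probe set. *Eprs* lay at 4.14 in G9a-KO and 3.42 in WT (1.65-fold). Its other probe sets above the array median differed by 0.92 and 0.87, so that 3 readings of this gene agreed in direction and roughly in size.

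The next members formed a narrow band. *Sars*, which charges serine tRNAs and also the selenocysteine tRNA, lay at 3.45 in G9a-KO and 2.76 in WT (1.61-fold), and its other probe set differed by 0.85. *Nars*, the asparagine enzyme, lay at 4.65 and 3.99 (1.57-fold), with 0.94 by its other probe set. *Tars*, the threonine enzyme, lay at 3.89 and 3.24 (1.57-fold). In each of these, as in those that follow, the first level is that of G9a-KO. *Kars*, the lysine enzyme, lay at 4.50 and 3.87 (1.54-fold) and *Gars*, the glycine enzyme, at 4.35 and 3.75 (1.52-fold). The valine enzyme *Vars* (1.59 and 1.04, 1.47-fold) and the leucine enzyme *Lars* (3.60 and 3.04, 1.47-fold) closed this band, in which the differences ran between 0.55 and 0.69.

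*Iars*, *Aars* and *Mars1*, the isoleucine, alanine and methionine enzymes, lay just past the threshold, which is 0.38 on the log2 scale. Their differences were 0.41, 0.40 and 0.39. The second probe sets of *Iars* and *Aars* gave 0.44 and 0.45, whereas *Mars1* was read by 1 probe set. A further probe set, annotated to *Aars* together with its neighbour *Exosc6*, differed by -0.33 and was not used, because a reading with 2 genes names neither.

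The cytosolic members that were not higher were few. *Rars*, the arginine enzyme, was the only one over 1.3-fold lower, at 3.38 in G9a-KO and 3.88 in WT (1.42-fold lower, from its only probe set). *Hars*, the histidine enzyme, differed by -0.19 (3.66 in G9a-KO and 3.85 in WT), with -0.05 by its other probe set. The phenylalanine enzyme of the cytosol is built from the products of *Farsa* and *Farsb*. *Farsa* differed by -0.13, but its other probe sets above the median ran both ways (from -0.34 to 0.34), so it has no settled direction. The probe set at -0.34 lay above the median in WT alone (-2.30 in G9a-KO and -1.96 in WT). *Farsb* differed by 0.18, with 0.37 and 0.47 by the next brightest probe sets. Its dimmest one (-1.61 in G9a-KO and -1.45 in WT) differed by -0.16, so the direction depended on the probe set. *Qars*, the glutamine enzyme, differed by 0.12, and its other probe sets also lay within the threshold. *Wars*, the tryptophan enzyme, differed by -0.013 (0.94 in G9a-KO and 0.95 in WT), although 1 of its 4 probe sets differed by 0.46.

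**Figure D2:**
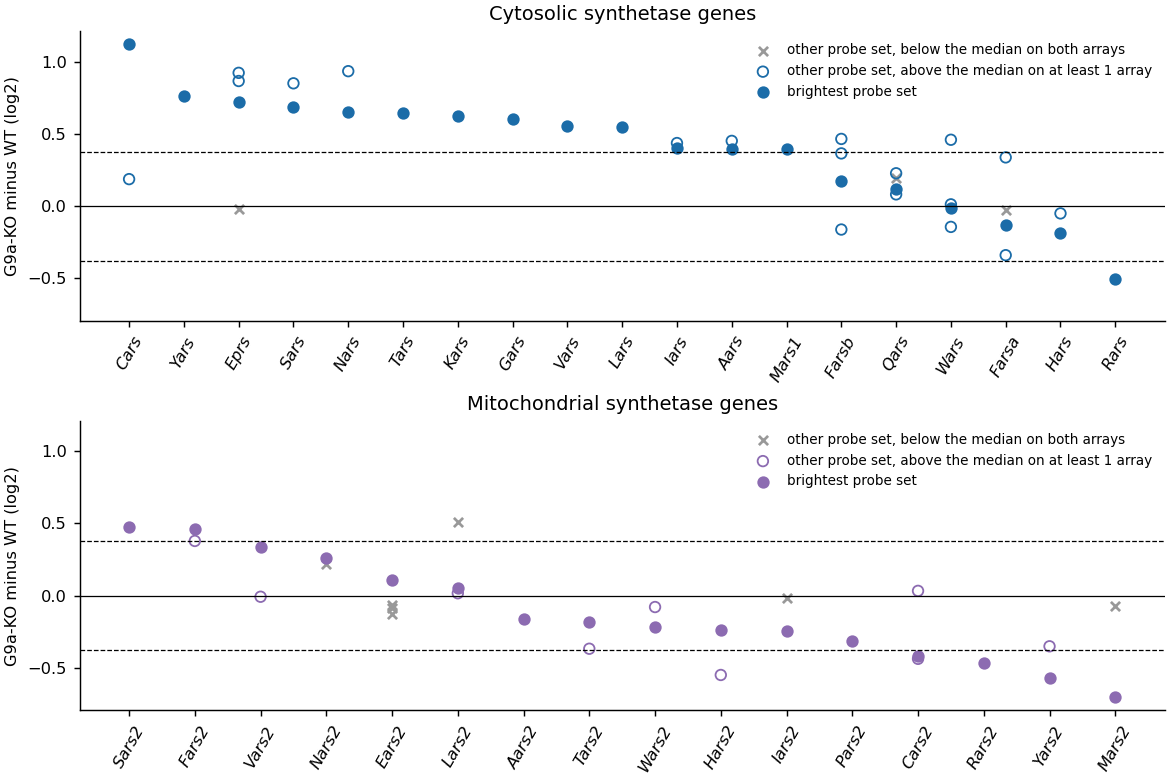
G9a-KO minus WT difference (vertical axis, log2) for each of the 72 probe sets of the synthetase genes (horizontal axis, genes ordered by their brightest probe set), cytosolic above and mitochondrial below, with dashed lines at 1.3-fold. Filled points are the brightest probe set of a gene, open points are other probe sets above the median on at least 1 array, and crosses are probe sets below it on both; *Rars* is the only cytosolic gene with a point under the lower dashed line.

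Counted by probe set, the picture was alike for the cytosolic genes. Of the 37 cytosolic probe sets above the median on at least 1 array, 21 were over 1.3-fold higher and 1 was lower, and of the 25 mitochondrial ones 3 were higher and 6 lower. With such probe sets only, 21.0% of all genes were higher and 22.9% lower, a share counted by gene and not by probe set. Probe sets of a gene share its RNA and are not replicates. Of the 11 cytosolic genes with several such probe sets, 8 had all of them in 1 direction and 3 (*Farsa*, *Farsb* and *Wars*) had both directions. Of the 8 mitochondrial genes of that kind, 6 ran 1 way. Among the lower mitochondrial probe sets, that of *Mars2* and the dimmer one of *Hars2* were above the median in WT alone. The filter itself selects their direction, so they add nothing to the count of lower ones. By the rule of the study, in which at least 1 probe set past the fold is enough, 15 cytosolic genes were higher and 1 lower, and 3 mitochondrial genes were higher and 5 lower, beside 24.6% of all genes higher and 22.0% lower.

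Among the mitochondrial genes, the lower values were those of *Mars2*, *Yars2*, *Rars2* and *Cars2*. *Mars2*, the methionine enzyme, lay at -2.75 in G9a-KO and -2.05 in WT (1.63-fold lower), but its G9a-KO level was below the median of the array (-2.13), so the fold depends on the background. *Yars2*, the tyrosine enzyme, lay at 1.45 in G9a-KO and 2.02 in WT (1.48-fold lower), and its other probe set differed by -0.35. The arginine enzyme *Rars2* lay at 2.10 and 2.57 (1.38-fold lower). The cysteine enzyme *Cars2* lay at 0.55 and 0.96 (1.33-fold lower), with 0.033 and -0.44 by its other probe sets.

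*Sars2* and *Fars2*, the serine and phenylalanine enzymes of the mitochondrion, were higher. *Sars2* lay at -0.14 in G9a-KO and -0.61 in WT (1.39-fold), and *Fars2* at 1.81 and 1.35 (1.38-fold, with 0.38 by its other probe set). *Vars2* (0.33) and *Pars2* (-0.32), the valine and proline enzymes, lay just within the threshold. *Nars2* (0.26), *Ears2* (0.11), *Aars2* (-0.16), *Tars2* (-0.18), *Wars2* (-0.22), *Hars2* (-0.24) and *Iars2* (-0.25) lay between these. *Hars2* passed the threshold by its dimmer probe set, which differed by -0.55 and lay below the array median in G9a-KO (-2.48). *Lars2*, the leucine enzyme, held 1 and the same deposited value on both arrays, so its 0.056 is the shift between the array percentiles and no measured difference.

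Pairs were formed for 14 amino acids with a measured gene of their own in each compartment. Glutamate and proline, which *Eprs* joins in the cytosol, were not paired (0.72 for *Eprs*, 0.11 for *Ears2* and -0.32 for *Pars2*). In 12 of these pairs the cytosolic gene had the more positive difference, by over 1.3-fold in 8 of them, and in 6 pairs the cytosolic difference was positive and the mitochondrial one negative. The cysteine pair stood farthest apart, with 1.12 for *Cars* and -0.41 for *Cars2*, followed by tyrosine (0.77 for *Yars* and -0.57 for *Yars2*) and methionine (0.39 for *Mars1* and -0.70 for *Mars2*). These distances are by the brightest probe sets. Another probe set gave 0.19 for *Cars*, and another gave 0.033 for *Cars2*. *Mars2* lay below the array median in G9a-KO (-2.75), and its other probe set, below the median on both arrays, differed by -0.072. For arginine, both genes were lower by a like amount (-0.50 for *Rars* and -0.47 for *Rars2*). For histidine, both lay within the threshold (-0.19 for *Hars* and -0.24 for *Hars2*). The phenylalanine pair ran the other way, with -0.13 for *Farsa* and 0.46 for *Fars2*.

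**Figure D3:**
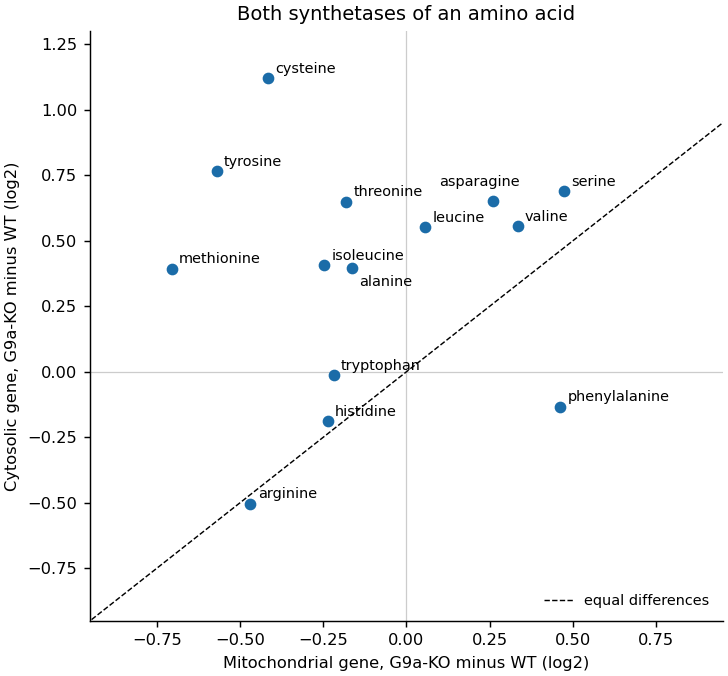
Difference between G9a-KO and WT (log2) of the cytosolic gene (vertical axis) against that of the mitochondrial gene (horizontal axis) for the 14 paired amino acids. There is 1 point per amino acid, with *Farsa* standing for cytosolic phenylalanine, and glutamate and proline (*Eprs*) are not shown. Each gene is read by its brightest probe set. The dashed line marks equal differences. Above it lie 12 points, with cysteine, tyrosine and methionine farthest, and arginine and phenylalanine lie below it.

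The cytosolic genes were then divided by what is known of their control and assembly. The ATF4 targets were named from general knowledge with earlier results of these data known, so the counts on either side are a description, and a gene outside that group may be a target too. Of the 12 known ATF4 targets, 11 were over 1.3-fold higher and 0 were lower, with a median of 0.63, and *Wars* was the exception. Of the 7 others, 2 (*Kars* and *Vars*) were higher and 1 (*Rars*) was lower, with a median of 0.12. These counts and those below stand beside 17.4% of all genes higher and 17.2% lower. Among other genes in the level range of the cytosolic members, 21.3% were higher and 22.9% lower. The shares of the 7 others (28.6% and 14.3%) lay near these. The multi-synthetase complex is a cytosolic assembly of synthetases and scaffold proteins, and genes in and outside it were both mostly higher. In the complex, 5 of 7 measured members were higher and 1 lower (median 0.41), and outside it 8 of 12 were higher and 0 lower (median 0.58). The 3 scaffold genes did not follow them, with *Aimp1* at 0.11, *Eef1e1* at 0.022 and *Aimp2* at -0.52 (1.43-fold lower). By the structural class of the enzyme, 6 of 9 genes of class I and 6 of 9 of class II were higher (medians 0.41 and 0.60, without *Eprs*, which holds a domain of each class).

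Promoter sequences were searched for the motif of ATF4, and those that hold it are shown so that its letters and place can be read. ATF4 pairs with C/EBP proteins at a composite element, searched here as TGATGNAA on both strands of the RefSeq promoter windows, which run from 250 bases before to 50 after the start of each gene. The windows came from assembly GRCm38.p6 and were at hand for 12 of the 19 cytosolic and 14 of the 16 mitochondrial genes. The motif stood in 5 of the 12 cytosolic genes and in 0 of the 14 mitochondrial genes, whereas it stood in 4.51% of all 27025 genes with a window (3.97% of the 32851 windows). All 5 (*Aars*, *Gars*, *Iars*, *Tars* and *Yars*) were among the 8 known ATF4 targets with a window, and 0 of the 4 others held it. That group was named with earlier results of these data known, so the overlap is a description and no independent support. In the form TGATGCAA the motif stood in 4 of the 12, against 1.03% of all genes with a window. A match is a description of the letters and not a site shown to be bound. The windows follow 5′ to 3′ on the strand of the gene, cut to the first 280 bases, which end 30 bases after the start. Capitals mark this motif, read on either strand (TTGCATCA and TTTCATCA are its reverse), and the E-box CACGTG.
*Aars*, chr8:111033592-111033871, + strand: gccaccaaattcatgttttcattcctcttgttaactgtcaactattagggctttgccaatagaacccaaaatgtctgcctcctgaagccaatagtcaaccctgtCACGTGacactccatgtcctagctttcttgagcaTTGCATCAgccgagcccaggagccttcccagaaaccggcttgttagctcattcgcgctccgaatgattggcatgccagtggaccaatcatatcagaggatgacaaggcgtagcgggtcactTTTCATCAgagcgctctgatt
*Gars*, chr6:55037751-55038030, + strand: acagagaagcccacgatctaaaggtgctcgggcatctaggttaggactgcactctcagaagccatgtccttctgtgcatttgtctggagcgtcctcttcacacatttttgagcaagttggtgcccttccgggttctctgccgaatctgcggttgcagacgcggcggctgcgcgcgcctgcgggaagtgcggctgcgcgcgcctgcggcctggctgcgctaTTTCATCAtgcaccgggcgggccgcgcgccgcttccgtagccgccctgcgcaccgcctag
*Iars*, chr13:49681880-49682159, + strand: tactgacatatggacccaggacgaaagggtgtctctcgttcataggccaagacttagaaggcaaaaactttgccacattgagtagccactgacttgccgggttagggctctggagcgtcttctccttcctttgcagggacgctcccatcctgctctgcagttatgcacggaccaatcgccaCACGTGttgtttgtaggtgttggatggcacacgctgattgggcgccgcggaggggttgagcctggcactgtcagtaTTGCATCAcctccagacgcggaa
*Tars*, chr15:11399629-11399908, - strand: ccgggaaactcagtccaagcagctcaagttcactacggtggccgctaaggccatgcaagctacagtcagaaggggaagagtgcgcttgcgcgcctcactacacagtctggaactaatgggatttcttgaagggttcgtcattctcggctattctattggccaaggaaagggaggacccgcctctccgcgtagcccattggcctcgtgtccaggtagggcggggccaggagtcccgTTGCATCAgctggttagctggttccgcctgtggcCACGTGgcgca
*Yars*, chr4:129189653-129189932, + strand: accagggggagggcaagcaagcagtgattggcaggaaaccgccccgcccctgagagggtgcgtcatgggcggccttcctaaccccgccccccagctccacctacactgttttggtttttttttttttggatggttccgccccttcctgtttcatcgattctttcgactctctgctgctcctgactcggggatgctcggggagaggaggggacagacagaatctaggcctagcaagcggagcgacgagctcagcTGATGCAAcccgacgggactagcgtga

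In *Tars* and *Gars* the motif begins 15 and 30 bases before the start of the gene, and in *Yars* and *Iars* 4 and 8 bases after it. *Aars* holds it on both sides of the start. Each of the 5 passed 1.3-fold upward in G9a-KO, from 0.40 (*Aars*) to 0.77 (*Yars*). The E-box, which is the motif of MAX and its partners, stood in 4 of the 12 cytosolic genes (*Aars*, *Iars* and *Tars* above and *Farsb*) and in 1 of the 14 mitochondrial genes (*Ears2*), against 8.09% of all genes with a window. *Eprs*, *Kars*, *Mars1* and *Sars*, which were higher too, held neither motif in this window.

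The other genes of the amino acid response were divided. Of 30 measured members, 16 were over 1.3-fold higher, 10 within and 4 lower in G9a-KO, beside 17.4% of all genes higher and 17.2% lower. Their median was 0.48 against 0.036 for all genes. *Asns*, which makes asparagine, lay at 5.14 in G9a-KO and 3.31 in WT (3.54-fold), and *Ddit3*, the gene of CHOP, at 1.96 and 0.15 (3.50-fold). *Vldlr* (4.95-fold) and *Nupr1* (3.17-fold) were also high. The 4 lower genes were the amino acid transporter genes *Slc7a3* (1.97-fold) and *Slc38a2* (1.68-fold), *Eif2ak4*, the gene of GCN2 (1.37-fold), and *Cebpb*, which encodes a C/EBP protein (1.32-fold). The transcript of *Atf4* itself differed by -0.16, and it and the 4 lower genes were chosen for naming after their values were seen. TGATGNAA stood in the windows of 7 of 26 of the amino acid response genes, against 4.51% of all genes with a window.

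Genes for other steps of tRNA use and of translation were counted in the same way. Of all 18194 genes, 17.4% were higher, 17.2% were lower and 11896 were within the threshold. Of 9 measured cytosolic elongation and termination factors, 0 were over 1.3-fold higher and 1, the release factor *Etf1* (1.49-fold), was lower. *Eef2*, which moves the ribosome along, differed by 0.34, and the median was 0.12. Of 37 genes for tRNA maturation, modification and export, 4 were higher, 10 lower and 23 within it (median -0.17). The pseudouridine synthase genes *Pus3* (2.11-fold lower) and *Pus7* (1.71-fold higher) went opposite ways, and the splicing endonuclease subunit *Tsen15* (1.74-fold) and the methyltransferase subunit *Trmt61a* (1.56-fold) were lower. The export receptor *Xpot*, a known ATF4 target chosen for naming after its value was seen, differed by 0.24.

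Among synthetase-like and proofreading proteins, 2 of 10 were higher and 1 lower, beside 17.4% of all genes higher and 17.2% lower. *Aarsd1*, which clears serine from wrongly charged alanine tRNA, was 1.59-fold higher (2.95 in G9a-KO and 2.28 in WT). *Tarsl2*, a second threonine enzyme of the cytosol, was 1.50-fold lower (-0.24 and 0.35), while *Tars* was 1.57-fold higher. The ribosome rescue gene *Gtpbp2* was 1.38-fold higher and *Prorsd1* differed by -0.37. Of 9 genes that make selenocysteine tRNA or complete mitochondrial glutamine tRNA by transamidation, 1 was higher and 3 lower, beside the same shares of all genes. In the amidotransferase, the subunit gene *Gatb* was 1.77-fold higher and *Gatc* 1.60-fold lower. *Sephs1* (1.63-fold) and the selenocysteine elongation factor *Eefsec* (1.45-fold) were lower.

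Of the 11 measured mitochondrial translation factors, 0 were over 1.3-fold higher and 2 lower, where 17.4% of all genes were higher and 17.2% lower. Their median was -0.12, beside the -0.20 of the mitochondrial synthetases. The initiation factor *Mtif3* was 1.52-fold lower. *Tufm* (-0.33), the elongation factor, *Mtfmt* (-0.25), which formylates the initiator tRNA, and *Gfm2* (0.29), which helps to recycle the ribosome, stayed within the threshold.

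**Figure D4:**
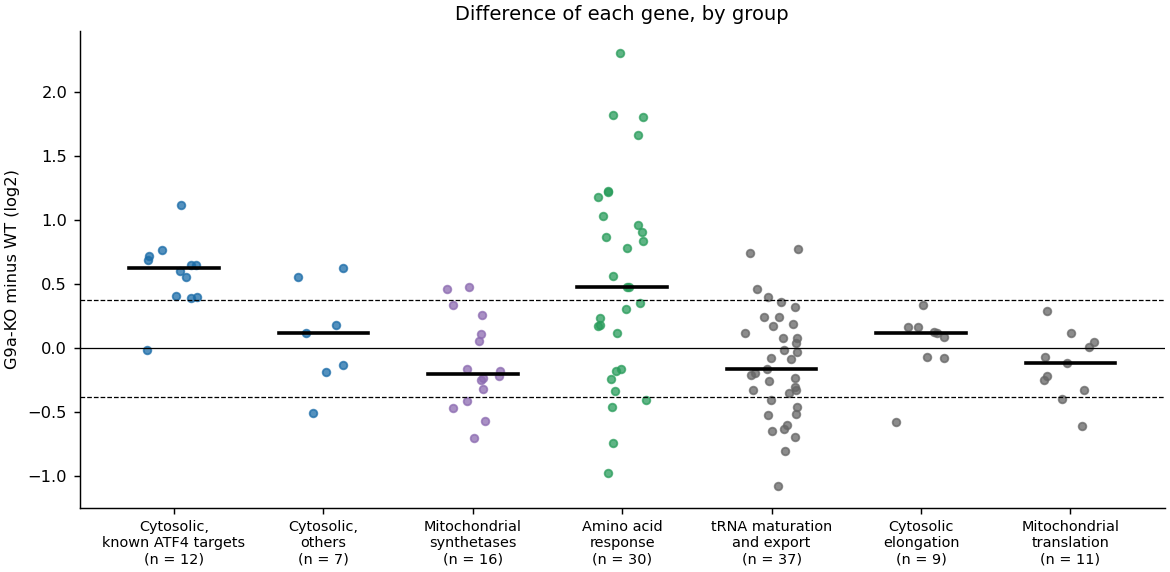
Each gene's G9a-KO minus WT difference (vertical axis, log2) in 7 groups (horizontal axis, n below each name), 1 point per gene with a sideways spread for legibility only, black bars at the group medians and dashed lines at 1.3-fold. The known ATF4 targets among the cytosolic synthetases have a median of 0.63 and the amino acid response genes one of 0.48, the other cytosolic synthetases 0.12 and the mitochondrial synthetases -0.20.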

How the data were processed

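Total RNA (200 ng per sample) was labelled with biotin and hybridised to Affymetrix mouse expression arrays. The deposited log2 values were made by the authors by RMA under R 3.2.1 (submitters' processing notes). RMA scales the arrays to each other, so a difference in total RNA per cell cannot be seen. The deposited values still differed slightly between the arrays. Their 75th percentile was 7.31 in G9a-KO and 7.37 in WT, and their median 5.18 and 5.13. The columns of both samples were used.

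After the methods of the study, each array was shifted by its 75th percentile, and WT was subtracted from G9a-KO for every probe set (Python 3.11.15, pandas 2.3.3). A single gene symbol was at hand for 34958 of 45101 probe sets, several symbols for 932, and no name for 9211. The probe set with the highest mean stood for a gene. Some items are not reported here. Calls were set at 1.3-fold, the threshold of the study for this pair, and at 2-fold. With 1 array per group no test was possible, and no depth applies to array values. The members, the gene lists and the division into ATF4 targets were written from general knowledge and with earlier results of these data known. All members could be named, and from each other list up to 4 genes above the median with the largest differences and agreeing probe sets. The calculation of differences and medians was checked on simulated arrays with known differences. The alternatives were other scalings (none, median, quantile, lowess with span 0.3), probe set filters and other ways to join the probe sets of a gene.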

Additional observations from a re-analysis of the deposited data

How the results depend on the processing

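No paired analysis was possible because each group holds 1 array, and no array could be left out. The cytosolic median stayed between 0.41 and 0.55, its distance to the mitochondrial median between 0.61 and 0.78, and the mitochondrial median between -0.30 and -0.16 over the scalings, filters and probe set rules tried. The lowest cytosolic median (0.41) and distance (0.61) were those without *Gars* and *Kars*, which removes 2 high genes by construction. Centring on the array median lowers every difference by 0.10. It left 10 cytosolic genes higher and 1 lower, 0 mitochondrial genes higher and 5 lower, and turned the calls over all genes to 2365 higher and 4050 lower, beside 3172 and 3126. Without probe sets of the endings _s_at, _x_at and _a_at, 1 mitochondrial gene was higher, and *Fars2*, *Sars*, *Tars2* and *Yars2* were lost. With the probe set of largest absolute difference, the cytosolic genes outside the ATF4 group had a median of 0.23, beside 0.12, and the scalings moved it the other way, to 0.065 with no shift, 0.075 with quantile normalization and 0.019 with median centring. At 2-fold, 1 cytosolic gene was higher and 0 lower, and 0 mitochondrial genes passed either way. Of the 20 members past 1.3-fold, 14 did so under every alternative that could be computed for them. *Aars*, *Iars* and *Mars1* dropped below it with no shift, median centring and quantile normalization (lowest 0.29), *Fars2* (0.36) and *Sars2* (0.37) under median centring, and *Cars2* with the mean over probe sets (-0.27). No member past the threshold changed sign. The same fold is less certain for dim probe sets such as those of *Mars2*.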

Other observations

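Several synthetase genes lie beside another gene in the RefSeq table of GRCm38.p6, and the values of these neighbours were read. Within 1 kb of the cytosolic members, 12 neighbours were measured, of which 6 differed in the same direction as the member and 6 in the opposite one (median -0.12, beside 0.55 for the cytosolic members themselves). For the mitochondrial members these were 4 and 6 of 10. *Mars1* (0.39) lies next to *Ddit3* (1.81), the gene of CHOP, and *Hars* (-0.19) next to *Hars2* (-0.24) and to the germ cell gene *Dnd1* (-0.50). *Kars* (0.62) lies between *Terf2ip* (-0.20), within that distance, and *Adat1* (-1.54), which is farther off and encodes an enzyme that deaminates an adenosine of alanine tRNA. *Adat1* lay outside the lists and was chosen after its value was seen.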
